A study of Mus musculus with 9 samples.

Results

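The BCL2 family sets whether the outer mitochondrial membrane of a cell stays intact, and 10 of its genes were followed here in intestinal organoids. They were chosen by symbol, matched to the mouse Ensembl identifiers of the expression tables, and all 10 were found among the 54838 genes listed. The list holds 3 guardians (*Bcl2*, *Bcl2l1* and *Mcl1*) and 7 pro-death members, of which *Bax* and *Bak1* are effectors and *Bid*, *Bad*, *Bcl2l11*, *Bbc3* and *Pmaip1* are BH3-only genes.

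Organoids are cultures of intestinal epithelium grown from crypts. The donor mice of all 7 libraries were *Vil-CreERT2*;*Mettl3* fl/fl animals: the villin promoter drives a tamoxifen-inducible Cre in intestinal epithelium and both *Mettl3* alleles are floxed; *Mettl3* encodes the catalytic subunit of the enzyme that places m6A on mRNA. The organoids received 4-OHT, the active form of tamoxifen, or its vehicle EtOH for 2 days, and DMSO or the RIPK1 inhibitor Nec-1 (necrostatin-1) for 5 days. The 7 RNA-seq libraries were EtOH DMSO (n = 2), EtOH Nec-1 (n = 2), 4-OHT DMSO (n = 2) and 4-OHT Nec-1 (n = 1). The mice were adult males. The EtOH controls carry the same transgene and floxed alleles. The labels do not say that libraries of a group came from separate mice or cultures, so p-values measure only the spread between these libraries, which may be technical.

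The targeted gene did not follow its label. *Mettl3* was at 2.70 and 2.71 FPKM (fragment density along the transcript, scaled to library size) in EtOH DMSO. The libraries labelled 4-OHT DMSO held 3.72 and 4.14 FPKM of it. With Nec-1 it was at 2.41 and 2.47 FPKM after EtOH and at 3.36 in the library labelled 4-OHT Nec-1. It was thus higher, not lower, where 4-OHT DMSO is the label than where EtOH DMSO is (log2 fold change 0.41, SE 0.098, adjusted p = 0.0231, limma). It no longer passed after median centring of the libraries (0.25, adjusted p = 0.0796) or upper quartile scaling (0.28, adjusted p = 0.0640). FPKM cover the whole gene and do not resolve the floxed exons. The group names below are therefore the labels of the libraries, and every direction given for 4-OHT rests on them.

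The libraries were epithelial and, by a rough estimate, similar in depth. The 5 epithelial markers (*Epcam*, *Vil1*, *Cdh1*, *Krt8* and *Krt19*) summed to between 2650 and 4020 FPKM per library. The 5 fibroblast and endothelial markers summed to between 0.555 and 1.21 FPKM, and *Ptprc*, which marks all leukocytes, did not exceed 0.0502 FPKM. The 6 immune markers summed to 3.38 and 3.52 FPKM in EtOH DMSO and to 6.71 and 9.03 where the label is 4-OHT DMSO, and the 4-OHT Nec-1 library held 10.1. Of the 3 tested, *Cd68* was called higher in 4-OHT DMSO. FPKM summed to 450207 to 498712 per library, and the spacing of the lowest values gave relative depths of 0.851 to 1.03. These depths, relative to EtOH DMSO 1, rest on 21 to 46 genes at the commonest ratio, with up to 20 at the next. Cell types within the epithelium moved with the groups. The 4 Paneth markers summed to 1720 and 1501 FPKM in EtOH DMSO and to 4104 and 4179 in the libraries labelled 4-OHT DMSO, whereas the 4 stem cell markers summed to 40.4 and 36.8 and to 22.4 and 15.4. In the libraries labelled 4-OHT DMSO, 4 of 4 Paneth markers were called higher. Of 4 stem cell markers, 3 were called lower (*Lgr5*, *Olfm4* and *Smoc2*). Also called higher were 4 of 4 goblet markers (2 of 4 after median centring) and 3 of 3 enteroendocrine markers. Of 4 enterocyte markers, 1 was called higher (*Apoa1*) and 2 lower (*Alpi* and *Sis*). Of 4 proliferation markers, 0 were called higher and 2 lower (*Top2a* and *Pcna*). Over all genes 24.5% were called higher and 16.7% lower. In bulk RNA, fewer cells of a type and less RNA per cell cannot be told apart, and the part of these shifts in the values below was not tested.

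The guardians hold the membrane closed by binding the pro-death proteins. The effectors BAX and BAK form the pores that release cytochrome c, which triggers caspases, and the BH3-only proteins either engage the effectors directly or neutralise guardians. Different BH3-only proteins prefer different guardians: NOXA, the product of *Pmaip1*, binds MCL1, and BAD binds BCL2 and BCL-XL. In the intestinal epithelium, BCL-XL and MCL1 are known as the main guardians, and PUMA (*Bbc3*) as a mediator of crypt cell death after irradiation. Much of the control of the family acts on protein turnover, location and binding, which mRNA does not show.

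The promoters of the members that passed a test below, and of *Bax*, are shown for the letters that lie near their start sites. RefSeq windows on GRCm38.p6 (mm10), from 250 bases before to 50 after each annotated start, were on hand for 9 of the 10 members (15 windows). *Pmaip1* was not matched. The windows had a median GC content of 65.7%, against 52.7% over all 32851 windows. All motifs were searched on both strands. The AP-1 letters TGANTCA and the CRE letters TGACGTCA were in 0 of the 15 windows, and in 7.81% and 1.79% of all windows. The GC box GGGCGG was in 10 of the 15 windows and in 35.7% of all windows. The FOXO letters TGTTTAC were in 2 of the 15 windows, of *Bcl2l11* and *Bbc3*, and in 3.65% of all windows. The E-box CACGTG was in 2 of the 15, of *Bax* and *Bbc3*, and in 7.15% of all. None of these motifs contains another. A match is a run of letters and not a bound site.

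The stretch before the first start of *Bcl2l11* (chr2:128125888-128126037, plus strand, outside the gene's RefSeq span) carried 2 GC boxes in capitals:
*Bcl2l11*: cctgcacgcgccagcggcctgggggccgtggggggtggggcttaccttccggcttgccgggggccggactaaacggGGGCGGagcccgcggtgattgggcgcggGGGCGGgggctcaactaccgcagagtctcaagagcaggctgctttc
The FOXO letters of *Bcl2l11*, read on the other strand, begin 227 bases before that start (chr2:128125799-128125828), and those of *Bbc3* 167 bases before the second of its 3 starts (chr7:16310082-16310111, plus strand, within the gene's span). Capitals mark the FOXO letters:
*Bcl2l11*: caagacactaggGTAAACAcgccggggtgg
*Bbc3*: gtctggcgggttTGTTTACaaacaatgggg
*Mcl1* had 1 match in its window, a GC box 20 bases before the start (chr3:95658689-95658718, plus strand, within the gene's span). The first of the 2 E-boxes of *Bax* begins 9 bases before its start (chr7:45466890-45466919, minus strand, across the start site). The match is in capitals:
*Mcl1*: ctccggaaacgcCCGCCCctttcccctttt
*Bax*: agcgatgatgatCACGTGactagtcctgcg

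The 10 members spanned a wide range of mRNA levels on the FPKM scale, which is per transcript length and so allows genes to be set side by side. Over the 7 libraries the mean was 43.5 FPKM for *Bax*, 42.7 for *Pmaip1* and 41.5 for *Mcl1*. The order of these 3 changed between libraries, so their means are not set apart. *Bak1* had a mean of 26.6, and in EtOH Nec-1 1 its 33.6 FPKM exceeded *Mcl1* (28.4) and *Pmaip1* (32.3). The means of *Bad* and *Bcl2l1* were 11.9 and 8.07 FPKM. *Bid* was at 4.74, *Bbc3* at 3.39 and *Bcl2l11*, which encodes BIM, at 1.36. *Bcl2* was the lowest at 0.346 FPKM and lay between 0.284 and 0.416 in all libraries. *Mcl1* alone made up 79.0% to 86.9% of the summed guardian FPKM, and *Bax*, *Bak1* and *Pmaip1* together 80.8% to 88.5% of the pro-death sum.

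**Figure D1:**
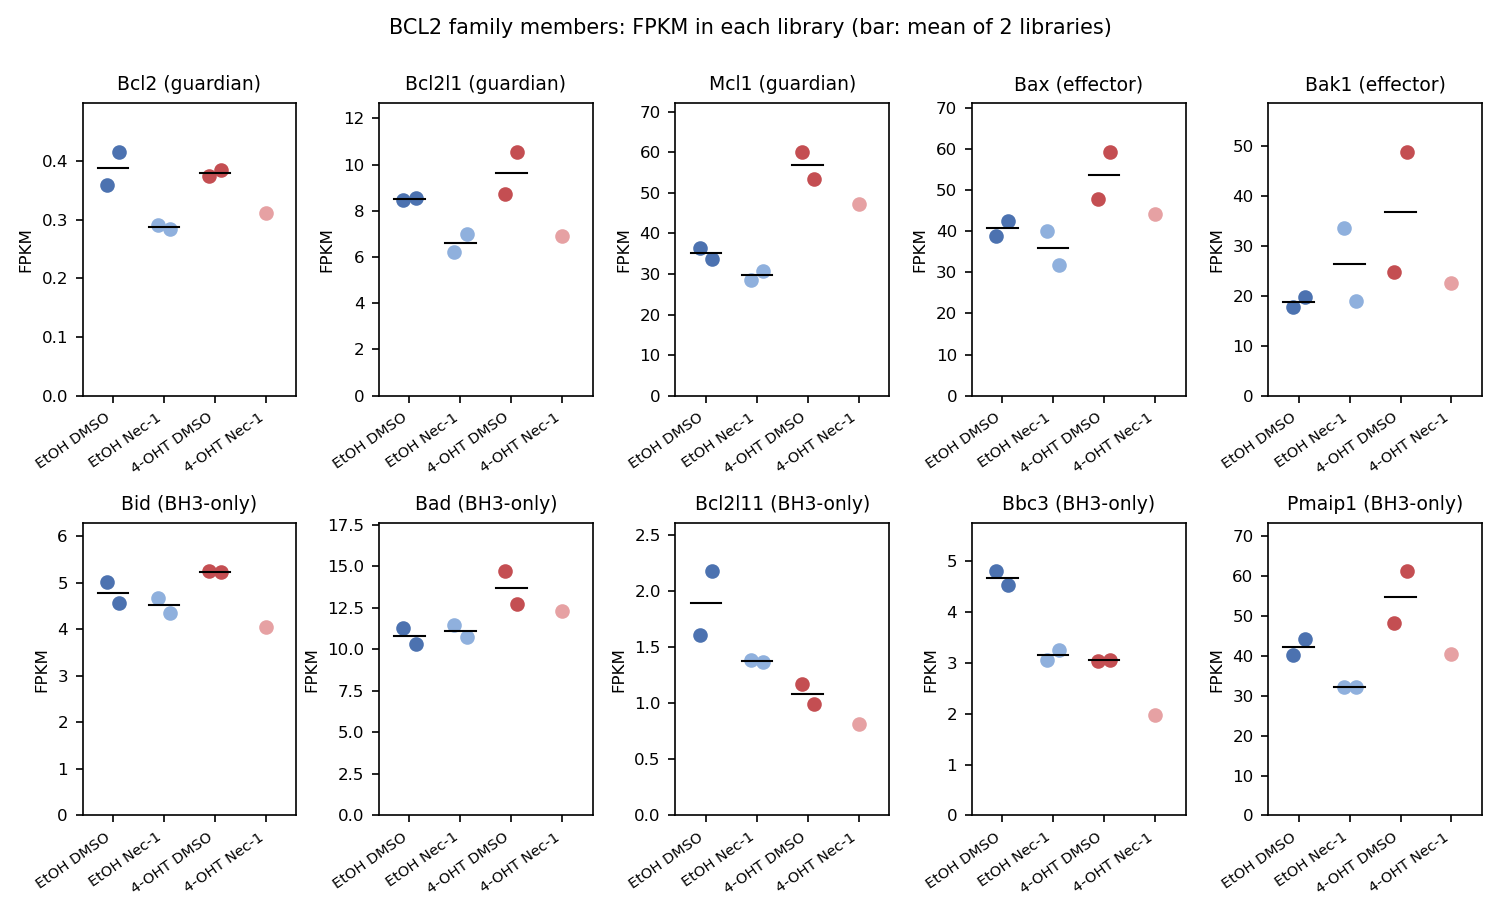
FPKM (vertical axes, each from 0) of the 10 BCL2 family members in the 4 groups; points are libraries and black bars the mean of 2 libraries. *Mcl1* is above 53 FPKM only in the libraries labelled 4-OHT DMSO, *Bbc3* is highest in EtOH DMSO, and the 2 libraries of *Bak1* lie far apart in EtOH Nec-1 and 4-OHT DMSO.

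The first comparison set the libraries labelled 4-OHT DMSO against EtOH DMSO and asks how the family differs once Cre has been induced, going by the labels. *Mcl1* rose, and the BH3-only genes *Bbc3* and *Bcl2l11* fell. Of the 9 members tested, 1 was called higher and 2 lower, and 6 did not pass. *Bcl2* was below the filter of 1 FPKM in at least 2 libraries and was not tested. Over all 12702 genes tested, 41.2% were called, 24.5% higher and 16.7% lower, so a call rate of 3 in 9 members is no higher than that of genes in general. The median member difference was 0.32 on the log2(FPKM + 1) scale, against 0.08 for all genes. With each library centred on its median, the median of all genes moved to -0.08, and the calls split into 2213 higher and 3187 lower in place of 3117 and 2120. The 3 member calls were made under that centring too.

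*Mcl1*, whose short-lived protein binds BAK, BIM and NOXA, was at 36.5 and 33.7 FPKM in EtOH DMSO (35.1 ± 1.99, SD, n = 2). In the libraries labelled 4-OHT DMSO it was at 60.2 and 53.4 FPKM (56.8 ± 4.76, SD, n = 2). The groups did not overlap. The log2 fold change was 0.68 (SE 0.098, adjusted p = 0.00481, limma), or 0.52 after median centring. The call held in every alternative that was run, with adjusted p between 0.00395 and 0.0275. *Mcl1* lies on chromosome 3 (95656944 to 95663179), and no other annotated gene overlaps it.

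*Bbc3* encodes PUMA, which binds all the guardians. It was at 4.80 and 4.53 FPKM in EtOH DMSO (4.66 ± 0.193, SD, n = 2) and at 3.04 and 3.06 in the libraries labelled 4-OHT DMSO (3.05 ± 0.0116, SD, n = 2). All of the 4-OHT DMSO values lay below all of the EtOH DMSO values. The log2 fold change was -0.48 (SE 0.094, adjusted p = 0.0120, limma), and adjusted p lay between 0.00523 and 0.0471 over the alternatives. The gene lies on chromosome 7 (16308398 to 16318334) with no overlapping annotated gene.

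*Bcl2l11*, whose product BIM can engage the effectors directly, was low throughout. It was at 1.61 and 2.17 FPKM in EtOH DMSO (1.89 ± 0.401, SD, n = 2) and at 1.17 and 0.991 in the libraries labelled 4-OHT DMSO (1.08 ± 0.125, SD, n = 2). The groups did not overlap, but the gap between the EtOH DMSO replicates was larger than that of 77.9% of genes. The log2 fold change was -0.47 (SE 0.14, adjusted p = 0.0463, limma). The call is weak. It was lost when EtOH DMSO 2, either EtOH Nec-1 library or either 4-OHT DMSO library was left out, with no filter on low values, with a replicate block, and in a fit of the 4 libraries alone, with adjusted p between 0.0735 and 0.152. The fall was -0.33 without EtOH DMSO 2. *Acoxl* overlaps *Bcl2l11* but did not exceed 0.135 FPKM in any library.

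The effectors did not pass. *Bax* was at 38.8 and 42.6 FPKM in EtOH DMSO and at 47.8 and 59.4 in the libraries labelled 4-OHT DMSO (log2 fold change 0.38, SE 0.16, adjusted p = 0.106, limma). *Bak1* was at 17.7 and 19.7 FPKM and at 24.7 and 48.9 FPKM (0.86, SE 0.38, adjusted p = 0.126, limma). For both genes the groups did not overlap, and for *Bak1* the 2 libraries labelled 4-OHT DMSO differed from each other by 0.95 log2 units, a gap larger than that of 95.2% of genes. The same held in EtOH Nec-1, where *Bak1* was at 33.6 and 18.9 FPKM and its gap exceeded that of 97.9% of genes. In EtOH DMSO its gap was near the middle of all genes, larger than 50.2% of them. The overlapping gene *Ggnbp1* stayed between 0.500 and 0.708 FPKM in all 7 libraries. Without 4-OHT DMSO 1, *Bak1* passed at 1.34 (adjusted p = 0.0279), and without 4-OHT DMSO 2 it was at 0.39 (adjusted p = 0.386). *Bax* was at 0.54 (adjusted p = 0.0529) and 0.23 (adjusted p = 0.315) without these libraries.

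The remaining BH3-only genes and BCL-XL did not pass. *Pmaip1* was at 40.3 and 44.2 FPKM in EtOH DMSO and at 48.2 and 61.2 in the libraries labelled 4-OHT DMSO (log2 fold change 0.36, SE 0.13, adjusted p = 0.0769, limma). *Bad*, whose protein is held inactive by phosphorylation, was at 11.3 and 10.3 and at 14.7 and 12.7 FPKM (0.32, SE 0.10, adjusted p = 0.0588, limma). *Gpr137* overlaps *Bad*, was at 4.03 to 9.36 FPKM, and the kit did not mark strand, so reads of the pair may not be fully separated. These genes had groups that did not overlap, and each passed in 1 reduced fit: *Pmaip1* without 4-OHT DMSO 1 (0.53, adjusted p = 0.0153) and *Bad* without 4-OHT DMSO 2 (0.41, adjusted p = 0.0438). With the other library of the pair left out instead, *Pmaip1* was at 0.19 (adjusted p = 0.209) and *Bad* at 0.22 (adjusted p = 0.193).

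*Bcl2l1*, which encodes BCL-XL, was at 8.48 and 8.56 FPKM in EtOH DMSO and at 8.73 and 10.6 in the libraries labelled 4-OHT DMSO (0.16, SE 0.12, adjusted p = 0.332, limma). *Bid*, which caspase-8 cleaves to link death receptors to mitochondria, was at 5.02 and 4.56 and at 5.24 and 5.24 FPKM (0.11, SE 0.094, adjusted p = 0.391, limma). The sign for these 2 genes was not stable: median centring gave -0.0015 for *Bcl2l1* and -0.05 for *Bid*. *Bcl2* was at 0.359 and 0.416 and at 0.375 and 0.385 FPKM, and here the groups overlapped. By position alone, all 4-OHT DMSO values lay above all EtOH DMSO values for 7 of the 9 tested members and below them for 2, against 40.7% and 30.8% of all genes. After median centring these counts were 4 and 2, with 3 overlapping (*Bcl2l1*, *Bid* and *Bad*).

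**Figure D2:**
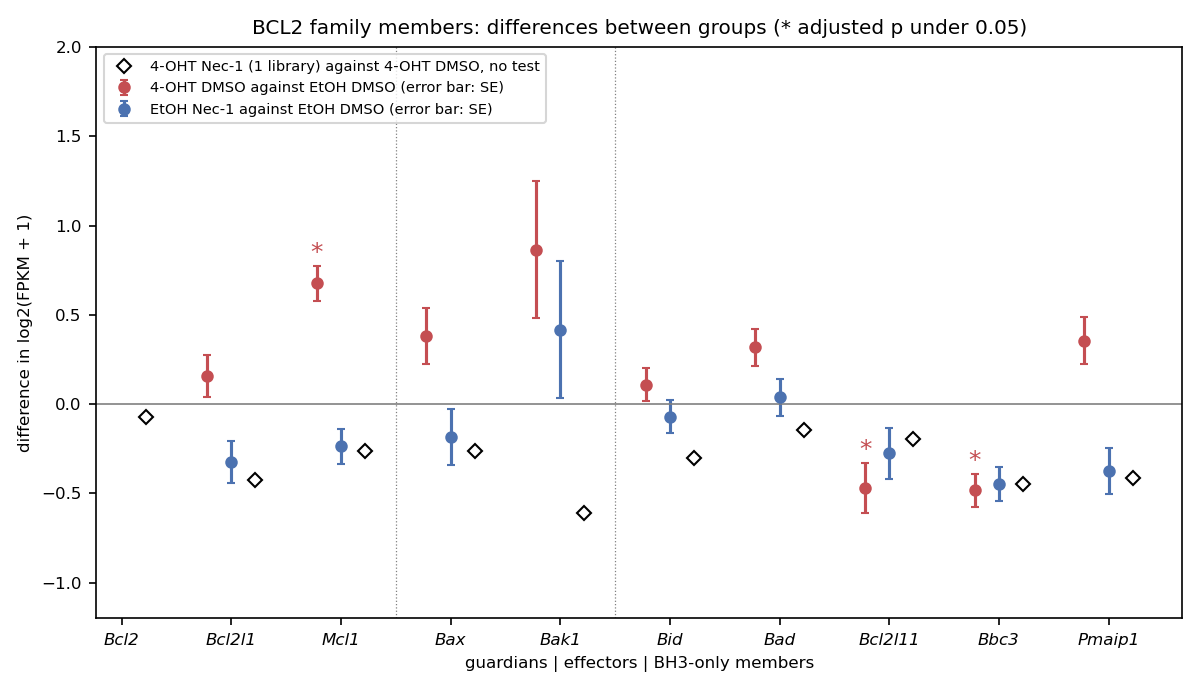
Differences in log2(FPKM + 1) (vertical axis) for each member (horizontal axis, by role); filled circles are limma estimates with SE bars, diamonds show how far the 4-OHT Nec-1 library lay from the 4-OHT DMSO mean, untested. *Bcl2* was below the filter and has no estimate. The asterisks mark *Mcl1* at 0.68, *Bcl2l11* at -0.47 and *Bbc3* at -0.48; every diamond is below 0.

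The second comparison was of EtOH Nec-1 with EtOH DMSO, Nec-1 in control organoids. No member passed in either direction: 0 of 9 by limma, with 0.220% of all genes called (28 of 12702). At an unadjusted p under 0.05 there were 3 members and 1689 genes. These 3 were *Bbc3* (3.06 and 3.25 FPKM in EtOH Nec-1; log2 fold change -0.45, SE 0.094, adjusted p = 0.1997), *Pmaip1* (32.3 and 32.2 FPKM; -0.38, SE 0.13, adjusted p = 0.336) and *Bcl2l1* (6.21 and 7.01 FPKM; -0.33, SE 0.12, adjusted p = 0.342). Each of them lay below both EtOH DMSO libraries. The same position was seen for *Mcl1* at 28.4 and 30.8 FPKM (-0.24, adjusted p = 0.383) and *Bcl2l11* at 1.38 and 1.37 FPKM (-0.28, adjusted p = 0.464).

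Among the 9 tested members, 5 were thus below and 0 above both EtOH DMSO libraries, against 39.1% and 10.5% of all genes. After median centring 4 were below, without *Mcl1*, and 1 above (*Bak1*), against 21.7% and 22.4% of genes, and 1 member in place of 3 had an unadjusted p under 0.05. The values of *Bax* (40.1 and 31.7 FPKM), *Bak1*, *Bid* (4.68 and 4.35 FPKM) and *Bad* (11.4 and 10.7 FPKM) overlapped those of EtOH DMSO. *Bcl2* was at 0.291 and 0.284 FPKM, below both. The median of the members was -0.24 and that of all genes -0.09. This comparison and the first share the EtOH DMSO libraries, so a low *Bbc3* in both is not independent.

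The library labelled 4-OHT Nec-1 has no replicate and was described without a test. All 10 members lay below both libraries labelled 4-OHT DMSO. Of the 8 whose mean over the 3 libraries reached 1 FPKM, 8 were below and 0 above both, where 50.6% of 12036 such genes were below and 24.5% above. The median difference on the log2(FPKM + 1) scale was -0.36 for these members and -0.09 for all genes. After median centring 7 of 8 lay below both, with *Bad* the exception, and the share of all genes fell to 32.6%. With a margin of at least 0.2 log2 units, 4 of 8 remained: *Bcl2l1*, *Bid*, *Bbc3* and *Pmaip1*, against 21.4% of all genes.

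The values show how far each moved. *Mcl1* was at 47.2 FPKM in the library labelled 4-OHT Nec-1 against 60.2 and 53.4, a difference of -0.26. *Bbc3* was at 1.97 FPKM against 3.04 and 3.06, a difference of -0.45. These are guardian and pro-death genes, and both lay below. *Bcl2l1* was at 6.91 FPKM (-0.42), *Pmaip1* at 40.4 (-0.42) and *Bak1* at 22.5 (-0.61). *Bak1* was far below the second 4-OHT DMSO library and 0.13 log2 units below the first. *Bid* was at 4.06 FPKM (-0.30), *Bax* at 44.2 (-0.26) and *Bad* at 12.3 (-0.14). *Bcl2l11* was at 0.815 FPKM and *Bcl2* at 0.312, the 2 members under the level filter.

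Within the Nec-1 libraries, the 3 members called in the first comparison lay the same way, without a test. *Mcl1* in the library labelled 4-OHT Nec-1 (47.2 FPKM) was above both EtOH Nec-1 libraries. *Bbc3* (1.97 FPKM) and *Bcl2l11* (0.815 FPKM) were below both. Of the 9 tested members, 4 were above both EtOH Nec-1 libraries and 3 below, against 50.4% and 38.0% of all genes. After median centring 2 were above, *Mcl1* and *Pmaip1*, and 4 below, against 39.0% and 49.4%. Thus the lowest *Bbc3* and *Bcl2l11* of all 7 libraries were in the library that carries both 4-OHT and Nec-1 in its label. That library also held the lowest sums of the 4 stem cell markers (7.63 FPKM) and the 4 proliferation markers (100 FPKM). In EtOH Nec-1 the stem cell markers summed to 27.5 and 25.6 FPKM, against 40.4 and 36.8 in EtOH DMSO. The part of these shifts in the member values was not tested.

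Guardians and pro-death members were then summed per library. With EtOH, the guardian sum was 45.4 and 42.7 FPKM under DMSO and 34.9 and 38.1 under Nec-1. With 4-OHT by label, it was 69.3 and 64.4 under DMSO and 54.4 under Nec-1. It was above every EtOH value in all 3 libraries labelled 4-OHT. The pro-death sum with EtOH was 119 and 128 FPKM under DMSO and 127 and 103 under Nec-1. With 4-OHT by label, it was 145 and 191 under DMSO and 126 under Nec-1. It exceeded the guardian sum in every library, by a ratio of 2.09 to 3.63.

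Whether the balance of the family separated the groups depended on how it was formed. Pro-death over guardian FPKM with EtOH was 2.63 and 3.00 under DMSO and 3.63 and 2.69 under Nec-1. With 4-OHT by label, it was 2.09 and 2.97 under DMSO and 2.32 under Nec-1, so 4-OHT DMSO and EtOH DMSO overlapped. On the log2 scale, guardians over pro-death members differed by 0.17 between 4-OHT DMSO and EtOH DMSO, where the pooled SD between replicates was 0.27. Without 4-OHT DMSO 1 the difference was -0.08, and without 4-OHT DMSO 2 it was 0.43. It was -0.15 for EtOH Nec-1 against EtOH DMSO (SD 0.24), 0.06 without EtOH Nec-1 1 and -0.37 without EtOH Nec-1 2. For 4-OHT Nec-1 against 4-OHT DMSO it was 0.10 (SD 0.36), 0.36 without 4-OHT DMSO 1 and -0.15 without 4-OHT DMSO 2.

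Against the BH3-only genes alone, log2 of guardian over BH3-only FPKM did not overlap between the labels. Under 4-OHT it was -0.06 and -0.37 with DMSO and -0.13 with Nec-1, above the 4 EtOH libraries, which lay between -0.62 and -0.45. The BH3-only sum itself did not fall. It was 72.3 and 83.2 FPKM in 4-OHT DMSO, against 62.9 and 65.8 in EtOH DMSO. With Nec-1 it was 59.6 FPKM under 4-OHT, against 52.9 and 51.9 under EtOH. The difference of mean log2(FPKM + 1), guardians minus pro-death members, was -0.44, -0.59 and -0.43 in the libraries labelled 4-OHT and -0.87 to -0.602 with EtOH, so the nearest libraries were 0.0086 apart. Against the effectors alone the labels overlapped, at -0.75 to -0.07 with 4-OHT and -1.08 to -0.32 with EtOH. Between 4-OHT DMSO and EtOH DMSO these 3 forms differed by 0.33, 0.12 and 0.02, in that order. None of them was tested. The guardian sum leaves out *Bcl2l2*, a guardian outside the list. It was at 8.81 and 11.4 FPKM in EtOH DMSO and at 4.50 and 4.82 in the libraries labelled 4-OHT DMSO. The separation against the BH3-only genes holds for the 3 listed guardians only and is lost when *Bcl2l2* is added to their sum. In 4-OHT DMSO 2 the guardian sum was 64.4 FPKM, *Bcl2l2* 4.82 and the BH3-only sum 83.2. In EtOH Nec-1 2 these were 38.1, 10.5 and 51.9 FPKM. With *Bcl2l2* counted, this EtOH library thus lies above 4-OHT DMSO 2. The other forms were not computed with *Bcl2l2*.

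*Bak1* and *Mcl1* are terms of the ratio, so it moves with them by construction. The highest *Bak1* values were in the libraries with the highest ratio of their group, EtOH Nec-1 1 and 4-OHT DMSO 2. This was not particular to *Bak1*. *Bax* was also higher there, at 40.1 and 59.4 FPKM against 31.7 and 47.8 in the other library of each group. With *Bak1* left out of the sum, a choice made after seeing the values, the ratio with EtOH was 2.24 and 2.54 under DMSO and 2.66 and 2.19 under Nec-1. With 4-OHT by label, it was 1.73 and 2.21 under DMSO and 1.91 under Nec-1. EtOH Nec-1 1 and 4-OHT DMSO 2 still had the higher ratio of their group. In this form both 4-OHT DMSO libraries lay below both EtOH DMSO libraries, the nearest at 2.21 and 2.24. Without *Mcl1* among the guardians, the log2 difference between 4-OHT DMSO and EtOH DMSO turned to -0.26.

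**Figure D3:**
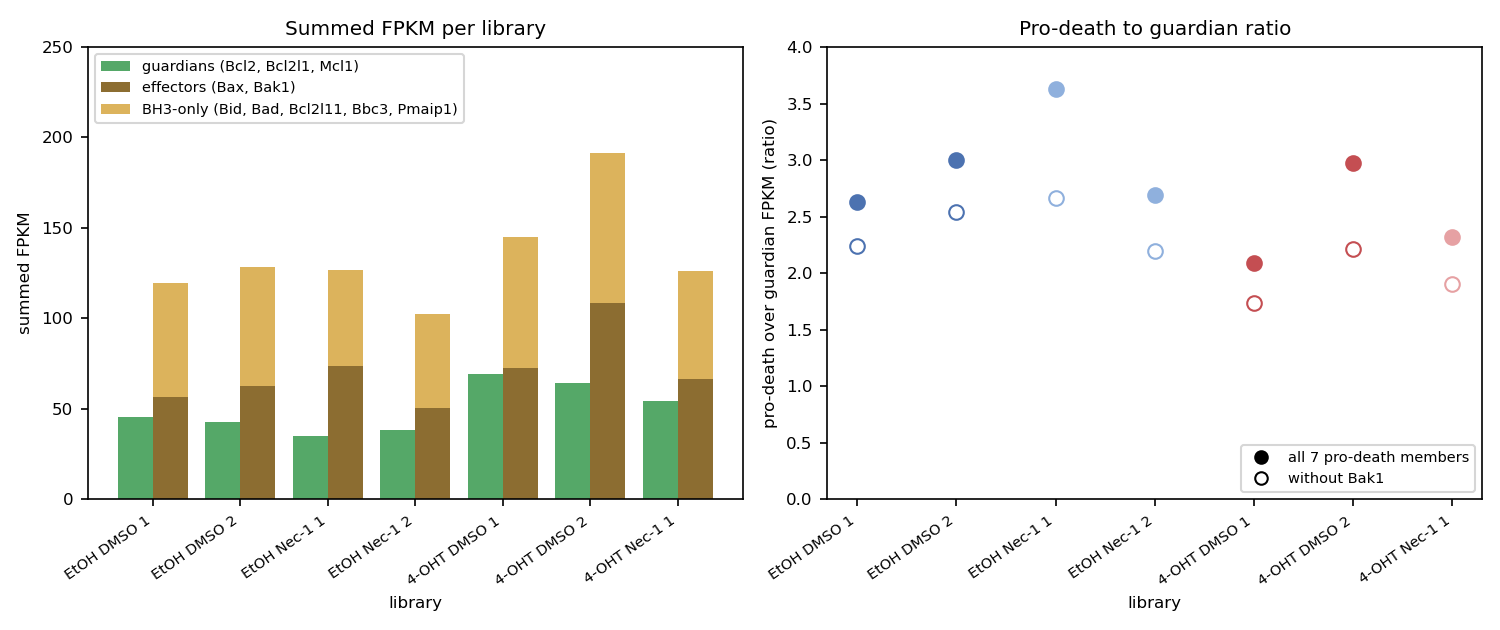
Left, summed FPKM of guardians (green) and of pro-death members, split into effectors and BH3-only genes (stacked), in each of the 7 libraries; right, the ratio of pro-death to guardian FPKM, with all 7 pro-death members (filled) and without *Bak1* (open). The filled points of EtOH DMSO (2.63 and 3.00) and 4-OHT DMSO (2.09 and 2.97) overlap, and their open points (2.24 and 2.54, 1.73 and 2.21) do not.

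A further 15 genes of the family, among them more distant relatives, were listed beside the members. Of the 11 that passed the filter in 4-OHT DMSO against EtOH DMSO, 4 rose and 3 fell. *Bok*, an effector-like gene, was at 2.72 and 6.03 FPKM in EtOH DMSO and at 17.9 and 18.3 in the libraries labelled 4-OHT DMSO (log2 fold change 1.90, SE 0.29, adjusted p = 0.00559, limma). *Bcl2l15* was at 5.16 and 4.79 and at 19.3 and 16.5 FPKM (1.66, SE 0.10, adjusted p = 0.000507, limma). *Bik*, a BH3-only gene, was at 0.357 and 0.406 and at 1.62 and 1.47 FPKM (0.88, SE 0.13, adjusted p = 0.00551, limma). For these 3 genes the groups did not overlap.

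The further genes called did not all go the way of *Mcl1*. The guardian gene *Bcl2l2*, which encodes BCL-W, fell from 8.81 and 11.4 FPKM to 4.50 and 4.82 (log2 fold change -0.96, SE 0.13, adjusted p = 0.00400, limma). *Bnip3* and *Bnip3l*, known for roles in the removal of mitochondria, also fell. *Bnip3* was at 85.5 and 81.6 FPKM and at 51.5 and 56.0 (-0.63, SE 0.11, adjusted p = 0.00823, limma). *Bnip3l* was at 45.1 and 44.3 FPKM and at 26.5 and 28.8 (-0.67, SE 0.080, adjusted p = 0.00273, limma). *Bcl2a1d*, like *Mcl1*, was called higher (1.32, adjusted p = 0.00613, limma), at 0.204 and 0.0564 FPKM against 1.46 and 2.23. It has near-identical copies between which reads may be split, so its value is uncertain. All 7 genes were also called after median centring and after upper quartile scaling. The 7 calls among 11 genes stand beside 41.2% called among all genes.

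In EtOH Nec-1 0 of the 11 were called, against 0.220% of all genes. In the library labelled 4-OHT Nec-1, *Bok* was at 12.1 FPKM, below both 4-OHT DMSO libraries, and *Bnip3* at 72.2 and *Bnip3l* at 31.9 FPKM were above both. *Bcl2l15* at 17.4 FPKM lay between them. Of the 10 whose mean over these 3 libraries reached 1 FPKM, 4 were below and 3 above both, against 50.6% and 24.5% of all genes.

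**Figure D4:**
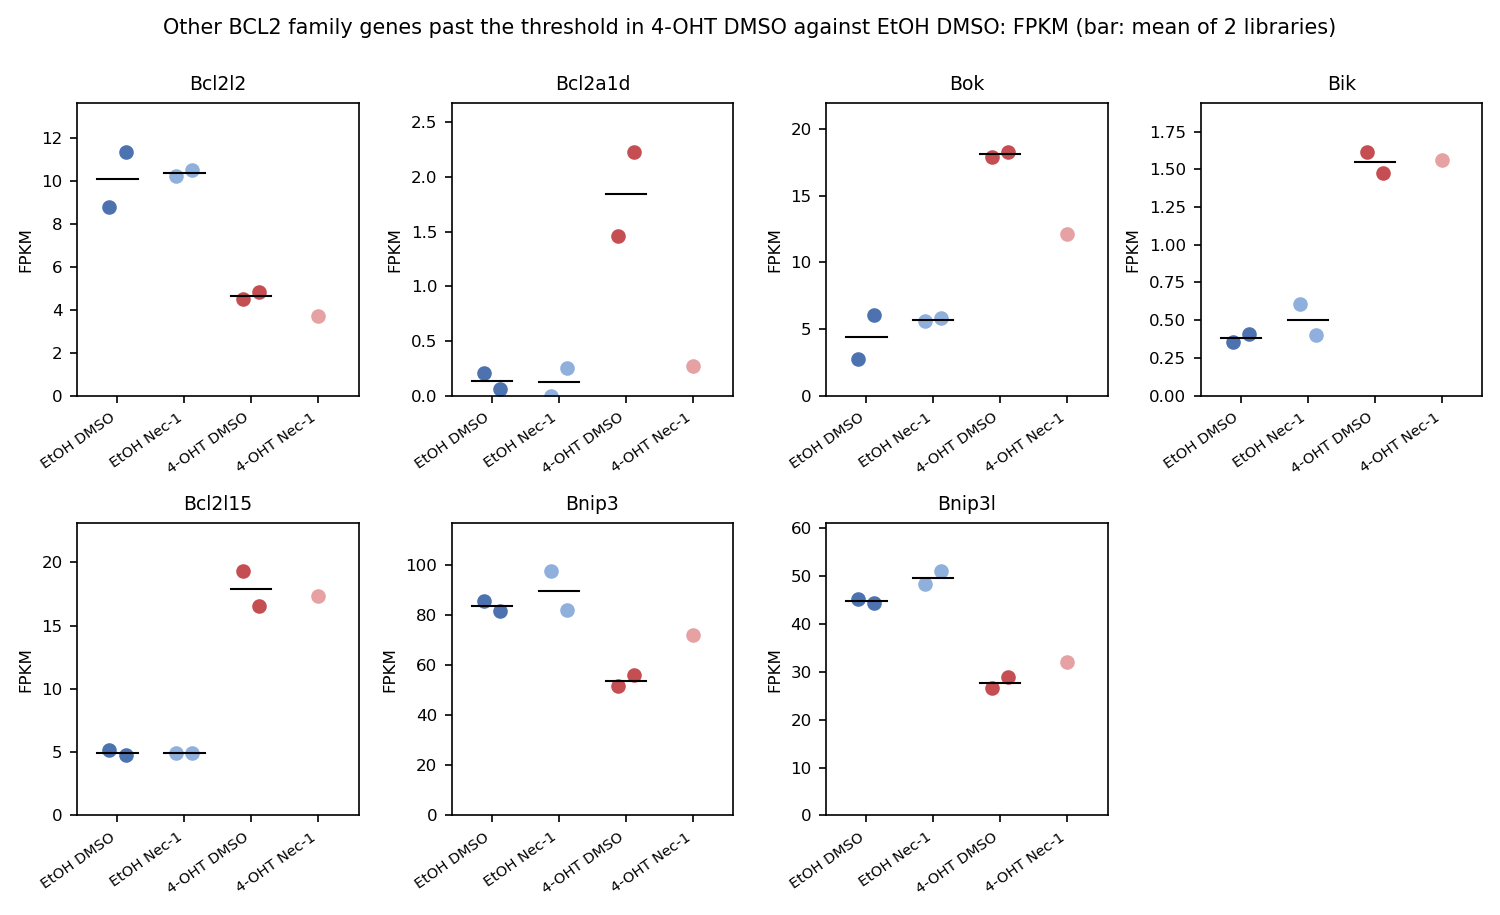
FPKM (vertical axes, each from 0) of the 7 other BCL2 family genes that passed the test between 4-OHT DMSO and EtOH DMSO; points are libraries and black bars the mean of 2 libraries. *Bok*, *Bcl2l15*, *Bik* and *Bcl2a1d* are higher, and *Bcl2l2*, *Bnip3* and *Bnip3l* lower, in both libraries labelled 4-OHT DMSO.

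Genes that act after pore formation were called at the rate of all genes, 41.2%. Of 17 tested, 4 rose and 3 fell between 4-OHT DMSO and EtOH DMSO (4 and 5 after median centring), and the median difference was -0.04. *Birc3*, an inhibitor of apoptosis, rose from 5.49 and 6.21 FPKM to 20.0 and 19.9 (log2 fold change 1.61, adjusted p = 0.000762, limma). *Cycs*, the cytochrome c gene, rose from 67.1 and 54.7 to 94.9 and 95.4 FPKM (0.64, adjusted p = 0.00878). *Casp9*, the caspase activated by cytochrome c through APAF1, fell from 5.63 and 5.13 to 3.07 and 1.17 FPKM (-1.10, adjusted p = 0.0314).

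Of 10 tested transcription factors known to act on members, 4 rose and 3 fell, which is 7 of 10 against 41.2% of all genes. After median centring 1 rose and 3 fell. *Rela*, an NF-κB subunit, rose from 8.99 and 11.3 to 24.9 and 22.3 FPKM (1.15, adjusted p = 0.00217). *Ddit3*, which encodes CHOP, fell by 0.53 on the log2 scale (adjusted p = 0.0117), and *E2f1* rose by 0.50 (adjusted p = 0.0339), a call that was lost after centring. *Trp53*, named after its value was seen, was at 18.0 and 17.8 FPKM in EtOH DMSO and at 13.4 and 11.7 in 4-OHT DMSO (-0.48, adjusted p = 0.0119). Of 12 p53 targets outside the family, 4 rose and 0 fell, against 24.5% and 16.7% of all genes, and after median centring 4 rose and 2 fell. *Mdm2* rose by 0.65 (adjusted p = 0.00591), *Tnfrsf10b* by 0.60 (adjusted p = 0.0131) and *Aen* by 0.52 (adjusted p = 0.00922). Among p53 targets within the family, *Bax* and *Pmaip1* did not pass and *Bbc3* fell.

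Over all genes 24.5% were called higher and 16.7% lower. Of 10 genes whose products modify or hold members, 2 rose and 0 fell. They were *Dynll1*, a dynein light chain known to bind BIM (15.0 and 8.60 FPKM against 42.9 and 40.8; 1.79, adjusted p = 0.00361), and *Dynll2*, which binds BMF (0.31, adjusted p = 0.0253; not called after centring). In EtOH Nec-1 against EtOH DMSO, 0 genes of any of these lists were called by limma, where 0.220% of all genes were.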

How the data were processed

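RNA-seq was analysed in 7 libraries of 4 groups; 2 CUT&Tag samples were not analysed here. The authors sequenced libraries made with an unstranded kit on an Illumina instrument, and the deposited values are FPKM per Ensembl mouse gene. The submitters' processing notes name HISAT2 2.1.0, StringTie 1.3.3b and mm10. Fragment counts are not known, so no counting interval is given. Relative depth was read from the commonest ratio of the lowest FPKM. No column was left unmapped (0). Of 54838 identifiers, 54723 matched a symbol.

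limma 3.58.1 (R 4.3.3), with a mean-variance trend, was fitted to log2(FPKM + 1) of the 12702 genes that reached 1 FPKM in 2 or more libraries. The fit used all 7 libraries with 1 mean per group (3 residual degrees of freedom), with Benjamini-Hochberg adjustment over all genes and a threshold of 0.05. The pseudocount of 1 makes fold changes of low genes smaller. The procedure was run on simulated data in which few genes changed, each by more than any member did here. Its outcome therefore does not carry over to the calls given above. 4-OHT Nec-1 was described without a test, and so were sums over members. Promoter letters were searched with Python 3.11.15 in RefSeq windows of GRCm38.p6. Alternatives covered scaling, filter, pseudocount, trend, samples, a replicate block and each library left out. Named were all 10 members, *Mettl3*, every other family gene called, and up to 3 called genes of each other list with the largest change. The members and lists were chosen with earlier results of these data known.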

Additional observations from a re-analysis of the deposited data

How the results depend on the processing

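Member calls between 4-OHT DMSO and EtOH DMSO numbered 2 to 4 over the alternatives, and with each library left out in turn 2 to 4. *Mcl1* and *Bbc3* were called in each of them. In EtOH Nec-1 against EtOH DMSO, 0 members were called in each. Signs turned only for genes that did not pass: *Bid* (-0.048) and *Bcl2l1* (-0.0015) with median centring and *Bid* (-0.029) with upper quartile scaling in the first comparison, and *Bid* (0.029 with median centring, 0.019 with upper quartile scaling) and *Bad* (-0.021 without EtOH DMSO 2, -0.0048 without EtOH Nec-1 1, -0.021 to 0.097 with each library left out) in the second. The cause was not tested. Asking for a margin of 0.2 log2 units left 4 in place of 8 members outside the 4-OHT DMSO libraries, by construction. The guardian to pro-death balance of 4-OHT DMSO against EtOH DMSO turned to -0.26 without *Mcl1*, and ran from -0.081 to 0.43 with each library left out.

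Libraries with the same replicate number showed no shared deviation, at r = 0.0065 and -0.040 over 12702 genes. This cannot tell whether they came from the same mouse or culture, since each group gives only 1 difference between its libraries. With a replicate block, 2 members (*Mcl1* and *Bbc3*) and 4697 genes were called in the first comparison, against 3 and 5237, and 0 members and 19 genes, against 28, in the second. All genes called in the second comparison ranged from 8 with no filter to 87 in a fit of its 4 libraries. Groups of 1 or 2 libraries and the unknown fragment counts limit what can be said of members near the filter, *Bcl2* and *Bcl2l11*.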
